A study of Mus musculus with 10 samples.

Results

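The arrays described here are the 4 from cultures with DCI at days 17 and 24, of 10 arrays in the series: day 24 DCI and day 24 KGF with DCI were compared with day 17 DCI and day 17 KGF with DCI. The labels give each array its group, and each day 24 array was paired with the day 17 array of the same KGF status, which gives 2 pairs and 2 arrays a day. All arrays hold RNA from mouse C57BL/6 embryonic stem cells under differentiation, with 1 array for each of the 10 conditions and no replicate cultures. KGF is keratinocyte growth factor, also known as FGF7, an epithelial growth factor, and DCI is read here as the dexamethasone and raised cAMP of the series title, since the labels do not spell it out. The title sets the question of whether these factors support differentiation into alveolar type II cells. The arrays of the same days without DCI (day 17 control and KGF, day 24 control and KGF) entered the same fit, where they add to the KGF term and the residual spread behind every p-value, and served to test whether a change over time differed from that without DCI. The cultures are whole populations, so a fall of a marker can come from fewer cells of a type or from less RNA per cell, and these cannot be told apart.

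Dexamethasone is a synthetic glucocorticoid that acts through the glucocorticoid receptor, and cAMP acts largely through protein kinase A. In the fetal lung, glucocorticoids and cAMP are known to promote maturation of type II cells, which make the surfactant proteins and lipids that lower surface tension, and KGF from the mesenchyme signals to the epithelium through the FGF receptor gene Fgfr2. Stem cells differentiating without a spatial plan also form other endoderm (yolk sac, liver, stomach and gut), muscle, endothelium and blood cells, and genes of those cell types were followed too. The label gives the cell type as the starting stem cell. Of 13 measured pluripotency genes, 9 stayed below the median of all values on the series' arrays (log2 6.67) on all 4 arrays with DCI.

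Between the days with DCI, the lists of mitosis, DNA replication and liver plasma protein genes had the largest shares of members that fell, and the promoters of 5 members that fell are shown because their letters hold motifs shared within each group. In mitotic genes, a CCAAT box and a downstream cell cycle homology element (TTTGAA) are the known binding sites of NF-Y and of the complexes that repress these genes in resting cells. In liver genes, GTTAAT is 1 arm of the palindrome bound by the hepatocyte factor HNF1. The sequences are RefSeq windows of mouse build GRCm38.p6, from 250 bases before to 20 bases after the annotated start, read 5′ to 3′ along the gene, with capitals in the 3 mitotic genes for the CCAAT box and the TTTGAA element, and in the 2 liver genes for the HNF1 arm GTTAAT alone, each on either strand. CCAAT letters also stand in both liver windows, where they are left in lower case. The CCAAT and TTTGAA matches of a window share no bases.
Cenpf, chr1:189688067-189688336, minus strand: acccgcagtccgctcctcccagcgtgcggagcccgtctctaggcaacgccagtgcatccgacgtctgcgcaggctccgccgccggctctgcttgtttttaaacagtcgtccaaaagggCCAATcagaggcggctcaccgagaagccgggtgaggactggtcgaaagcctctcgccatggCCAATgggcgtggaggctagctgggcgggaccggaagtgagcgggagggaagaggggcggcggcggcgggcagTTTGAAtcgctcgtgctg
Ttk, chr9:83834439-83834708, plus strand: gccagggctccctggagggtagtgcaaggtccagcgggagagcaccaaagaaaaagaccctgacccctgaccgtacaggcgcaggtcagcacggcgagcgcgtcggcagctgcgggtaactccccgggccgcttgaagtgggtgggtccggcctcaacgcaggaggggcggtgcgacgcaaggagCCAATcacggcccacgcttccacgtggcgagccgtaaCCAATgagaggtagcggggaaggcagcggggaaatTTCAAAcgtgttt
Cdc20, chr4:118437324-118437593, minus strand: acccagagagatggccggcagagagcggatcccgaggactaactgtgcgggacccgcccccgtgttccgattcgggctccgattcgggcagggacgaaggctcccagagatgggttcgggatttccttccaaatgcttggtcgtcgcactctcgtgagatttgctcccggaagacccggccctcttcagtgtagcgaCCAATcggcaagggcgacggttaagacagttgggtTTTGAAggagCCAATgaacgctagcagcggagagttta
Serpina1b, chr12:103738170-103738439, minus strand: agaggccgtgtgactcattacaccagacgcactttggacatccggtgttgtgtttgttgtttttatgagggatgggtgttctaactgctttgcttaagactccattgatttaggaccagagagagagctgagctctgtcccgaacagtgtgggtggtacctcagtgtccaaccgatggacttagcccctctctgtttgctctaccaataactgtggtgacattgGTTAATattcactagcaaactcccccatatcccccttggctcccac
Alb, chr5:90460620-90460889, plus strand: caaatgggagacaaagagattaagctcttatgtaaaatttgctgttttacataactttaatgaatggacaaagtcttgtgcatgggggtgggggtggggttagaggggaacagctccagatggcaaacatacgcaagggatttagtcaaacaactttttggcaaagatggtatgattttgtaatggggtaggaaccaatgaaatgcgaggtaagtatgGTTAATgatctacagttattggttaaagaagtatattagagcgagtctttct
In Cenpf, CCAAT began 132 and 71 bases before the start and TTTGAA 2 bases after it. In Ttk, CCAAT began 65 and 28 bases before the start, and the reverse complement of TTTGAA lay 7 bases after it. In Cdc20, CCAAT began 53 and 8 bases before the start and TTTGAA 18 bases before it. GTTAAT began 26 bases before the start of Serpina1b and 32 bases before that of Alb. Over the full windows of 300 bases, on both strands and counting any window of a gene, 13 of the 17 mitosis genes with a RefSeq window (76.5%) held both CCAAT and TTTGAA, against 7.97% of all 27025 genes. The letters TTTGAA alone were in 76.5% of the mitosis genes, 11.8% of 17 DNA replication genes and 20.2% of all genes. CCAAT alone was in 88.2% of the mitosis genes and 41.1% of all genes. GTTAAT was in 7 of 16 liver plasma protein genes (43.8%) and in 8.24% of all genes. A match describes these letters and was not tested as a binding site.

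From day 17 to day 24 with DCI, 6198 of 18193 genes passed at an adjusted p under 0.05 in limma (34.1%), of which 2177 (12%) were higher at day 24 and 4021 (22.1%) lower. The counts of list members below are to be read beside these shares. Counts without DCI are to be read beside the shares of all genes there, 11.8% higher and 15.8% lower. The fit held the 8 arrays of days 17 and 24 with a term for KGF, and values are log2 differences ± SE. At least a 2-fold difference in addition left 438 genes higher (2.41%) and 547 lower (3.01%). All 6198 moved the same way in both pairs. The test nearly requires this, since a disagreement between the pairs adds to its residual spread. In the pair without KGF, 467 genes were at least 2-fold higher and 555 lower. In the pair with KGF the counts were 490 and 652, and 355 and 404 of these were shared by both pairs. A second quantile normalisation moved the split to 2563 higher and 3208 lower. Without the day 17 DCI array 3689 genes passed, and without the day 17 KGF with DCI array 3703.

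Some control signals moved with day in the same arrays. The dap spike-in, a bacterial transcript added to check labelling, read 2.84 and 2.72 higher at its 3′ than its 5′ probe sets on the day 17 DCI and KGF with DCI arrays, against 1.42 and 1.5 at day 24 (1.57 to 1.91 on the 4 arrays without DCI). The same difference was 0.62 and 0.61 at day 17 and 0.59 and 0.54 at day 24 for the cellular transcript of Actb, and 0.12 and 0.05 against 0.03 and 0.04 for Gapdh. With the dap difference as a covariate, added after the data were seen, 1 gene passed and 1119 had an unadjusted p under 0.05, and the median SE went from 0.13 to 1.12. On the arrays with DCI the dap difference moved with day, so this fit could hardly separate it from the day change. The 5′ probe set of 18S ribosomal RNA read 9.86 on the day 24 KGF with DCI array and 11.58, 11.96 and 11.84 on the other arrays with DCI. The part of these signals in the results below was not tested.

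**Figure D1:**
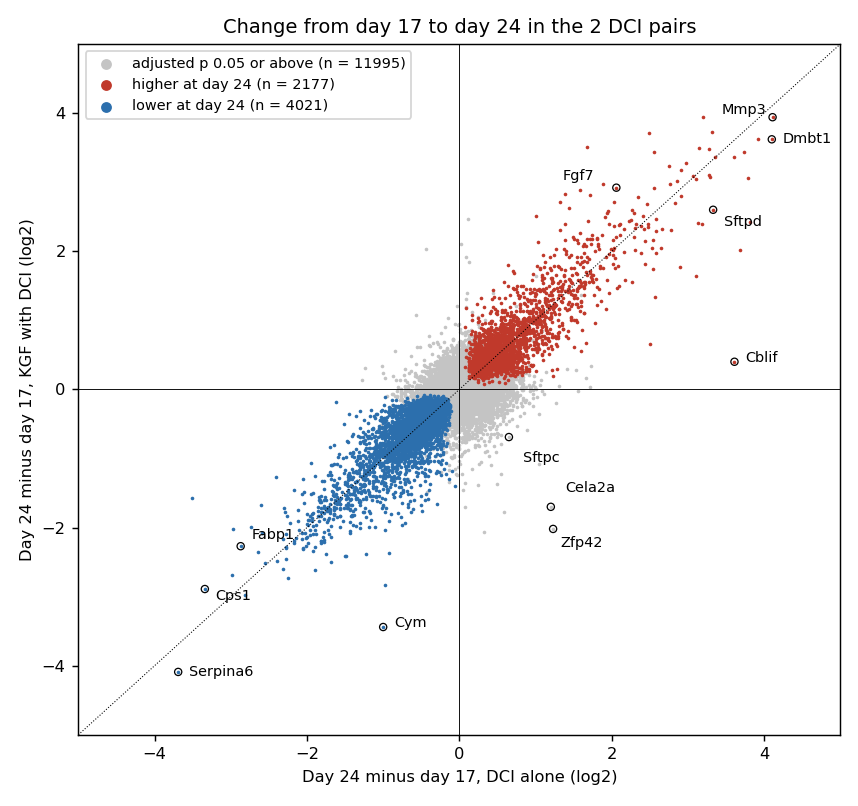
Each point is 1 of 18193 genes, with its log2 change from day 17 to day 24 with DCI alone on the x axis and with KGF and DCI on the y axis; red and blue points passed at an adjusted p under 0.05 (2177 higher, 4021 lower) and grey points did not. Called genes lie along the dotted line of equal change, as the test favours genes alike in both pairs. Cblif and Cym moved mainly in 1 pair and Zfp42 and Cela2a moved in opposite directions.

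The 15 largest rises included 2 enzymes of matrix breakdown and several genes of mucosal defence. Mmp3, which encodes the matrix-degrading enzyme stromelysin 1, read 3.87 with DCI and 4.34 with KGF and DCI at day 17, and 7.98 and 8.27 at day 24. It rose by 4.03 ± 0.16, or 16.3-fold (adjusted p = 5.64e-07). Mmp7, matrilysin, read 7.80 and 7.72, then 11.15 and 11.08, a rise of 3.36 ± 0.12. The day 17 and day 24 values lay far apart for both enzymes. Of 17 matrix metalloproteinase and inhibitor genes, 11 were higher and 2 lower (7 higher without the day 17 KGF with DCI array), with a median change of 0.34 against -0.02 over all genes. Mmp8, the neutrophil collagenase, rose by 1.41, and the membrane-type enzyme gene Mmp16 fell by 1.33, with other probe sets of Mmp16 between -0.50 and -0.01.

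The mucosal defence and acute phase list had 14 of 17 members higher and 0 lower, with a median of 1.82. Dmbt1, a mucosal scavenger glycoprotein, read 7.36 and 7.96 at day 17 and 11.46 and 11.58 at day 24 (3.86 ± 0.24). Lactoferrin, Ltf, read 7.87 and 9.4, then 11.67 and 12.46 (3.43 ± 0.23, adjusted p = 6.01e-06). Its array with KGF was the higher at both days, and the days did not overlap. The acute phase glycoprotein gene Orm1 read 5.35 and 5.11, then 8.62 and 8.59 (3.38 ± 0.20). Lcn2, a siderophore-binding lipocalin, read 9.33 and 9.78, then 12.61 and 12.89 (3.20 ± 0.06). Reg3g, an antibacterial lectin, read 8.46 and 9.88, then 11.75 and 12.95 (3.18 ± 0.14). Each of these genes also rose between the same days without DCI, Ltf by 3.52, Orm1 by 2.75, Lcn2 by 3.79 and Reg3g by 3.68, and the list median there was 1.68. Pigr, the receptor that carries IgA across epithelia, rose by 3.10 ± 0.37, and the Reg family gene Reg1 by 3.12 ± 0.37. The largest rises also held Wfdc18, of the whey acidic protein family (3.59 ± 0.08), Ptx3, a long pentraxin of innate immunity (3.57 ± 0.18, with another probe set at 0.63), Fam3b, a cytokine-like secreted protein (3.52 ± 0.17), Tc2n (3.32 ± 0.23) and Nlrp10, of the NOD-like receptor family (3.12 ± 0.17). All 15 of the largest rises also rose without DCI, and in 4 of them (Fam3b, Gkn3, Tc2n and Lcn2) the size of the rise differed between cultures with and without DCI.

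**Figure D2:**
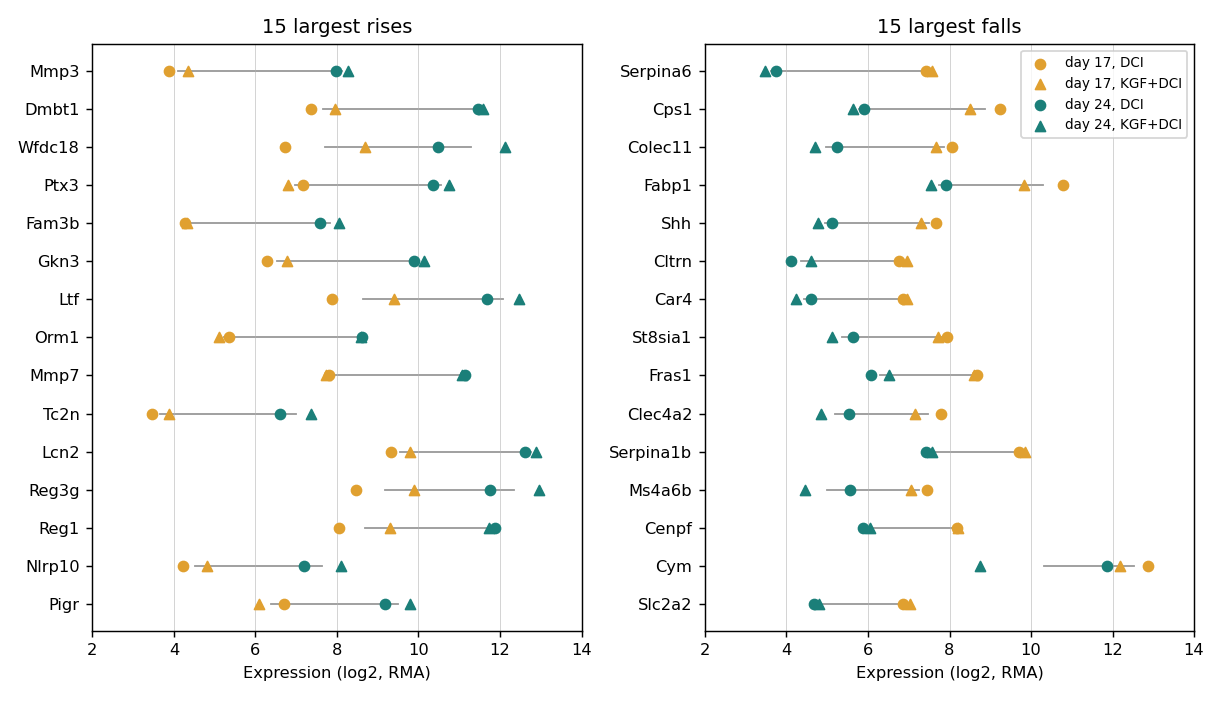
Log2 expression of the 15 genes with the largest rises (left) and the 15 with the largest falls (right) on the 4 arrays with DCI; orange marks day 17, green day 24, circles DCI alone, triangles KGF with DCI, and grey lines join the day means. In each gene shown the day 17 and day 24 arrays do not overlap, and Cym has the widest gap between its day 24 arrays (11.87 and 8.75).

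The stomach list rose with DCI and also, by a smaller median, without it. The stomach protease gene Cym, which is not on the list and is described below, fell (-2.22 ± 0.54). Of 14 stomach epithelium genes, 8 were higher and 0 lower, with a median of 1.5 against 0.57 without DCI (5 higher without the day 17 DCI array, and 5 with a robust variance prior). The gastrokine gene Gkn3 read 6.28 and 6.78 at day 17 and 9.88 and 10.14 at day 24 (3.48 ± 0.22). Ctse, the gastric protease cathepsin E, read 7.74 and 7.69, then 10.65 and 10.86 (3.04 ± 0.09, with another probe set at 0.82). Pgc, which encodes pepsinogen C, read 4.26 and 4.31, then 7.40 and 6.72 (2.77 ± 0.21). Gkn1 read 8.80 and 10.97, then 12.48 and 12.99, and its rise of 2.85 ± 0.63 no longer passed without the day 17 DCI array (1.7, adjusted p = 0.0913), without the day 24 KGF with DCI array (2.81, adjusted p = 0.0517) or with the robust prior (adjusted p = 0.158). Tff2, a trefoil peptide of gastric and airway mucus, rose by 2.41 ± 0.13. Cblif, gastric intrinsic factor, chosen after its values were seen, read 4.72 and 4.69 at day 17 and 8.34 and 5.08 at day 24. Only its day 24 array with DCI alone stood high, and without that array its change was 0.48 (adjusted p = 0.12). Without the day 24 KGF with DCI array it was 3.53, and without the day 17 DCI array 1.38 (adjusted p = 0.27). Among intestinal genes 6 of 19 were higher and 4 lower. The goblet cell genes Tff3 (10.32 and 9.66, then 12.06 and 11.89) and Spink4 (9.68 and 9.52, then 11.64 and 11.49) rose by 1.99 ± 0.14 and 1.96 ± 0.08. The fatty acid carrier genes on this list fell, and the cells that made them were not identified. Fabp1 read 10.78 and 9.83, then 7.91 and 7.55 (-2.57 ± 0.17), and Fabp2 read 7.22 and 5.10, then 3.71 and 3.52 (-2.54 ± 0.37).

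With DCI, lung genes split between those that rose over the week and those that did not. Sftpd, surfactant protein D, an innate defence lectin, read 6.97 and 8.41 at day 17 and 10.29 and 11 at day 24, a rise of 2.96 ± 0.16 (7.79-fold, adjusted p = 1.71e-06). It rose by 3.18 without DCI. The apical mucin gene Muc1 read 8.01 and 8.54, then 9.54 on both arrays (1.26 ± 0.14). Napsa, a protease that processes surfactant proteins, read 6.36 and 6.63, then 7.55 and 7.64 (1.10 ± 0.13, with another probe set at 0.10). The other surfactant protein genes, chosen after their values were seen, as was Napsa, did not pass. Sftpc, the marker most particular to type II cells, read 5.4 with DCI and 8.03 with KGF and DCI at day 17 and 6.05 and 7.34 at day 24 (-0.02 ± 0.30, adjusted p = 0.967), with a change of 0.65 in the pair without KGF and -0.69 in the pair with KGF. Its array with KGF was the higher at both days. Without DCI Sftpc rose by 1.17 ± 0.30 (adjusted p = 0.0155). This did not differ past the threshold from its change with DCI (-1.19 ± 0.42, adjusted p = 0.196). Sftpa1 read 4.23 and 5.72, then 4.11 and 5.19 (-0.33 ± 0.30, adjusted p = 0.441), and Sftpb 5.44 and 6.32, then 5.92 and 6.23 (0.19 ± 0.22, adjusted p = 0.535). Nkx2-1, a transcription factor of early lung and thyroid, read 4.66 on both day 17 arrays and 5.00 and 4.47 at day 24. It was also chosen after its values were seen. Of 19 type II genes, 4 were higher and 6 lower, with a median of -0.08 (2 lower after averaging each gene's probe sets). Without DCI, 9 of them were higher and 3 lower, with a median of 0.37. The lower ones with DCI included Lyz2 (10.82 and 10.57, then 9.10 and 8.68), a lysozyme that macrophages also make. Dram1, a lysosomal membrane protein, rose by 1.44.

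Type I and airway markers held further rises. Aqp5, the water channel of type I cells and glands, read 7.27 and 8.08 at day 17 and 9.92 and 10.12 at day 24 (2.35 ± 0.19, 5.09-fold). Of 14 type I genes, 6 were higher and 2 lower (3 higher without the day 17 DCI or the day 24 DCI array), among them Vegfa, the endothelial growth factor gene that is also on the hypoxia list (0.85 ± 0.07). Of 20 airway secretory genes, 13 were higher and 2 lower, with a median of 0.99 and of 1.02 without DCI. Scgb1a1, the club cell secretory protein, read 5.98 and 7.75, then 8.88 and 9.52 (2.33 ± 0.36, adjusted p = 0.000829, and 0.053 with a robust prior). Scgb3a2, a related secretoglobin chosen after its values were seen, read 4.86 and 5.38, then 4.43 and 7.41, and stood high on the day 24 array with both treatments alone (0.80 ± 0.56, adjusted p = 0.308; 2.15, adjusted p = 0.000628, without the day 24 DCI array). Of 20 motile cilium genes, 0 were higher and 3 lower, and 0 lower without the day 17 or the day 24 KGF with DCI array. The share of all genes that were lower was 22.1%. Among general epithelial genes, 16 of 23 were higher and 1 lower (10 higher without the KGF term), with the tight junction gene Cldn4 at 1.42 ± 0.08 and the epithelial transcription factor gene Elf3 at 1.25 ± 0.11. Of 15 keratins, 10 were higher and 2 lower. Krt17 rose by 1.84 (another probe set 0.34), Krt23 by 1.68, Krt6a by 1.57 and Krt14, of basal cells, by 1.60 (8.10 and 7.94, then 9.74 and 9.49).

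**Figure D3:**
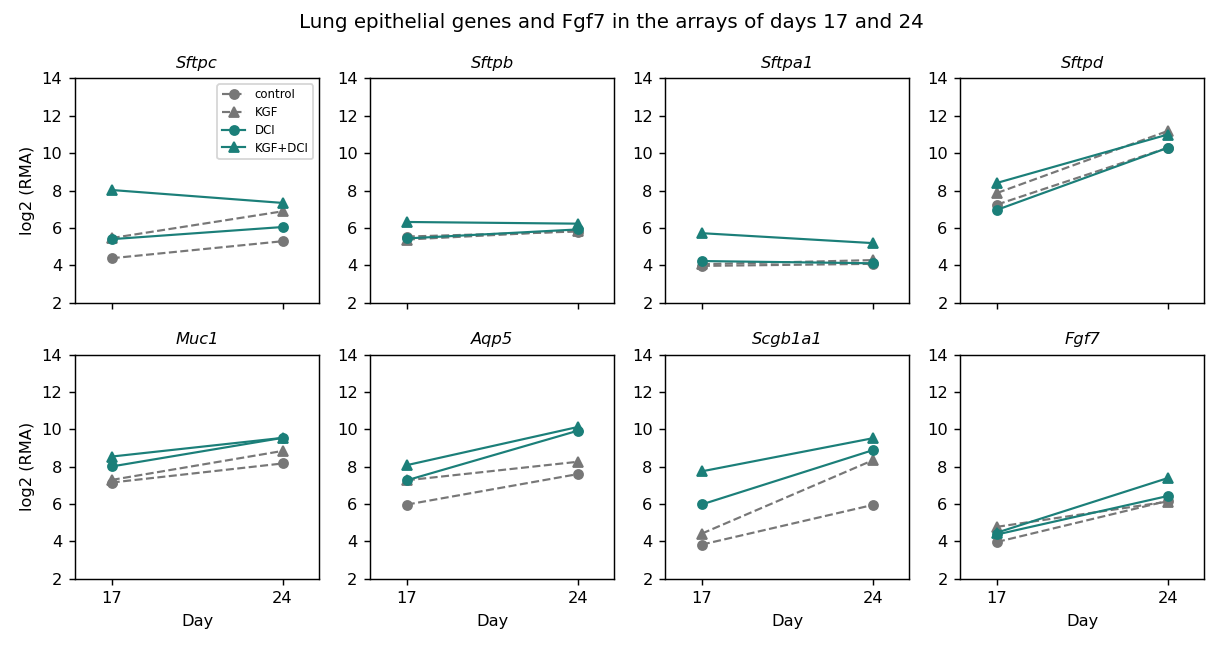
Log2 expression of 7 lung epithelial genes and of Fgf7 at days 17 and 24 (x axis, days) in cultures with DCI (green, solid) and without DCI (grey, dashed); circles are cultures without KGF and triangles with KGF, 1 array a point. Sftpd, Muc1, Aqp5, Scgb1a1 and Fgf7 rose on all lines, whereas Sftpc with KGF and DCI went from 8.03 to 7.34.

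The transcript of the added growth factor itself rose. Fgf7, which encodes KGF, read 4.37 with DCI and 4.47 with KGF and DCI at day 17, and 6.43 and 7.39 at day 24, a rise of 2.49 ± 0.24 (5.61-fold, adjusted p = 4.37e-05). Its other probe set gave 2.31, and without DCI it rose by 1.78, which did not differ past the threshold from the rise with DCI (0.71 ± 0.34, adjusted p = 0.344). Its receptor gene Fgfr2, chosen after its values were seen, read 8.46 and 8.63, then 8.46 and 8.50 (-0.06 ± 0.08, adjusted p = 0.572, with other probe sets at 0.23 and 0.30). Of 15 genes of FGF receptor 2 signalling and its feedback, 4 were higher and 2 lower (2 higher without the day 17 or the day 24 KGF with DCI array). Over all genes 12% were higher and 22.1% lower. Egr1, an immediate early gene of growth factor signalling, rose by 1.12 ± 0.07.

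Genes of the responses to DCI itself did not move as 1 group. Of 24 glucocorticoid response genes, 11 were higher and 5 lower, with a median of 0.28 and of 0.27 without DCI. Hsd11b1, the enzyme that regenerates active glucocorticoid, read 9.0 and 8.96, then 10.59 and 10.53 (1.57 ± 0.09). Its rise without DCI was larger (2.70, with a difference of -1.12 ± 0.13, adjusted p = 0.0026). Without DCI it read 6.57 and 6.62, then 9.15 and 9.44, below the arrays with DCI on both days. The phosphatase gene Dusp1 rose by 1.42 ± 0.07 and Errfi1, an inhibitor of the EGF receptor, by 1.09 ± 0.13. The receptor co-chaperone gene Fkbp5 read 9.42 and 9.01, then 9.30 and 9.21 (0.04 ± 0.12, adjusted p = 0.829), and Tsc22d3, the glucocorticoid-induced leucine zipper, 9.47 and 9.18, then 9.67 and 9.59 (0.31 ± 0.11, adjusted p = 0.0613; 0.00801 in a fit of the 4 arrays with DCI). Tsc22d3 also passed without the day 17 control array (adjusted p = 0.0319), without the day 17 KGF array (adjusted p = 0.0324) and, at 0.49, without the day 17 DCI array (adjusted p = 0.0243). Both genes were chosen after their values were seen. Without DCI Fkbp5 fell by 0.72 (adjusted p = 0.00213) and Tsc22d3 did not pass (0.19, adjusted p = 0.241). The changes of Fkbp5 with and without DCI did not differ past the threshold (adjusted p = 0.0567). Of 21 cAMP response genes, 8 were higher and 3 lower (5 higher without the day 17 or the day 24 KGF with DCI array). Rgs2, a regulator of G protein signalling, rose by 1.95 ± 0.08, and the immediate early genes Fosb, Nr4a1 and Junb by 1.80, 1.42 and 1.36, against 2.24, 1.69 and 1.71 without DCI. Serpina6, which encodes corticosteroid-binding globulin, the plasma carrier of glucocorticoids made in the liver, had the largest fall among the genes named: it read 7.43 and 7.57, then 3.74 and 3.47 (-3.89 ± 0.37, 14.8-fold, adjusted p = 3.95e-05). It fell by 2.80 without DCI.

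Inflammatory and hypoxia genes were mostly higher at day 24. Of 16 cytokine and inflammatory enzyme genes, 11 were higher and 1 lower (median 0.66, and 0.93 without DCI). Il6 read 7.80 and 7.53, then 9.38 and 9.79 (1.92 ± 0.14), and the granulocyte factor Csf3 rose by 1.7, the interleukin 1 antagonist Il1rn by 1.52 and the prostaglandin synthase Ptges by 1.44. Of 18 interferon response genes, 9 were higher and 1 lower, with Ifit1 at 1.94, Ifit3 at 1.92 and Oasl2 at 1.88. Chemokines were divided: 7 of 15 CXC genes were higher and 2 lower, and 7 of 15 CC genes higher and 3 lower. The B cell attractant Cxcl13 read 6.64 and 6.70, then 9.55 and 9.49 (2.85 ± 0.11), the neutrophil attractant Cxcl5 rose by 2.36 ± 0.08 and the eosinophil attractant Ccl11 by 1.80 ± 0.15. Of 18 hypoxia and glycolysis genes, 14 were higher and 0 lower, with medians of 0.48 with DCI and 0.51 without, and the carbonic anhydrase gene Car9 and adrenomedullin, Adm, rose by 2.03 ± 0.14 and 1.87 ± 0.10.

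Skeletal muscle genes rose as well. Of 20 measured, 13 were higher and 0 lower, with a median of 1.35 (8 higher without the day 17 KGF with DCI or the day 24 DCI array, and 5 with a robust prior). Without DCI, 10 were higher and 0 lower, with a median of 1.0. The muscle regulatory factor Myf6 read 3.72 and 4.26 at day 17 and 5.94 and 6.71 at day 24 (2.33 ± 0.20). The contractile genes Tnnc2 (7.47 and 8.30, then 9.95 and 10.69), Acta1 (8.32 and 9.09, then 10.70 and 11.46) and Myl1 (8.47 and 8.84, then 10.58 and 11.24) rose by 2.44 ± 0.49, 2.37 ± 0.33 and 2.25 ± 0.42, and with the robust prior their adjusted p were 0.128, 0.0602 and 0.113. The KGF array was the higher of each pair for these 4 genes. Without DCI they rose by 1.97 (Myf6), 2.26 (Tnnc2), 2.52 (Acta1) and 2.37 (Myl1). For the contractile genes the day 17 KGF array without DCI already stood well above its control. Control and KGF read 7.40 and 10.31 for Tnnc2 at day 17, then 11.08 and 11.15. Acta1 read 8.45 and 10.51, then 11.97 and 12.03, and Myl1 8.16 and 10.63, then 11.70 and 11.82.

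**Figure D4:**
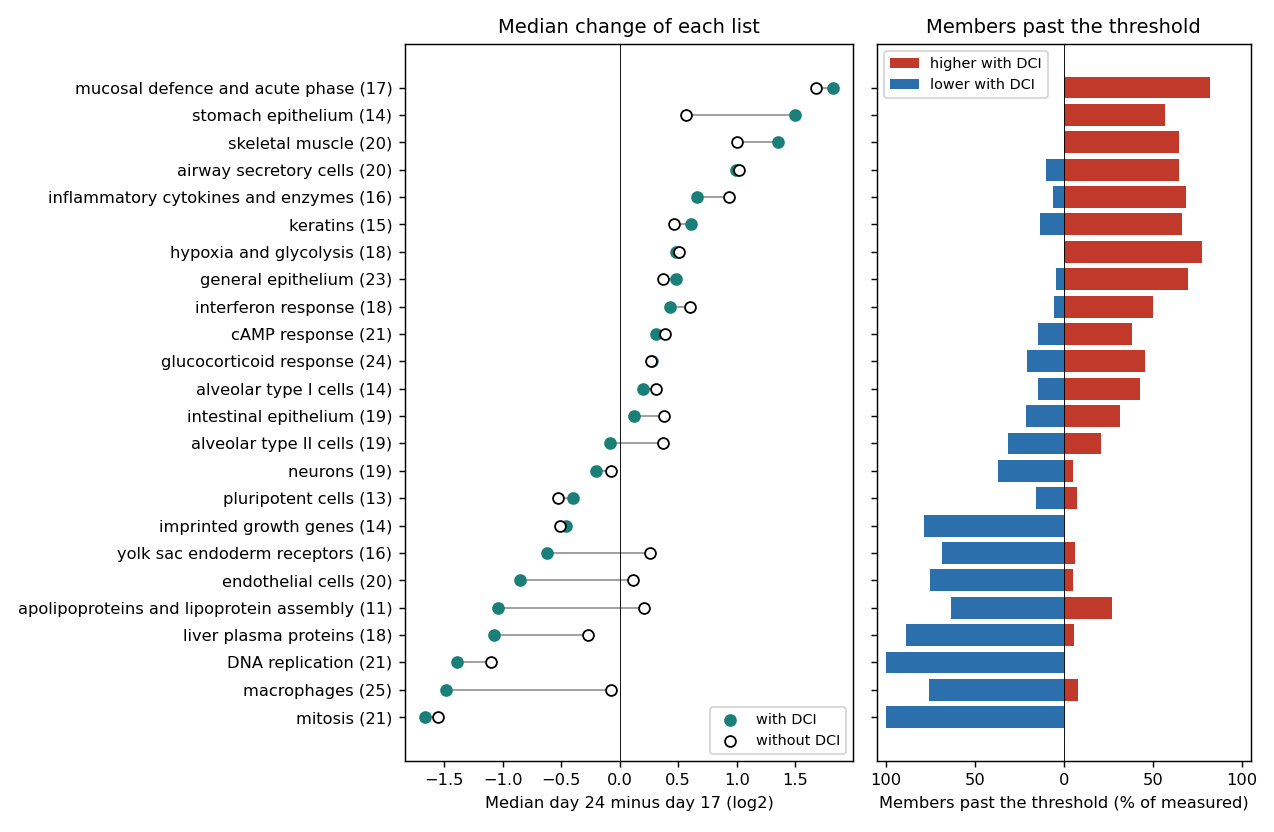
Left, the median change from day 17 to day 24 (log2) of 24 gene lists with DCI (filled) and without DCI (open), the number of measured members in brackets; right, the share of each list's members past the threshold with DCI, higher (red) or lower (blue), in percent. Mitosis and DNA replication fell with and without DCI, while the medians of the macrophage, liver, apolipoprotein, endothelial and yolk sac lists lay lower with DCI.

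Cell division genes fell as a block. All 21 mitosis genes and all 21 DNA replication genes were lower at day 24 with DCI, with medians of -1.66 and -1.39. All members of both lists were also lower without DCI (medians -1.55 and -1.10). Cenpf, a kinetochore protein and the most changed of the mitosis genes, read 8.19 and 8.20, then 5.88 and 6.05 (-2.23 ± 0.11, with other probe sets at -0.34 and -0.31). The spindle checkpoint kinase genes Ttk (7.80 and 7.85, then 5.98 and 5.66) and Bub1 (9.12 and 9.07, then 7.16 and 7.04) fell by 2.01 and 2.0, with other probe sets at -0.34 and -0.48. Birc5, survivin, fell by 2.01. Cdc20, an activator of the anaphase-promoting complex whose promoter is printed above, fell by 1.46 ± 0.09 and was chosen after its values were seen. Among replication genes, the helicase subunits Mcm5 (-1.99), Mcm6 (-1.83) and Mcm3 (-1.72) and the primase Prim1 (-1.88) had the largest falls, with the smallest fall among other probe sets at -0.35 for Mcm5, -0.05 for Mcm6 and -0.04 for Mcm3. Mcm3 was the 1 member of both lists whose fall differed between cultures with and without DCI (-0.58 ± 0.12, adjusted p = 0.0343).

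Liver plasma protein genes fell in 16 of 18 cases and rose in 1, with a median of -1.07. Serpina1b, an alpha-1-antitrypsin, read 9.71 and 9.84 at day 17 and 7.43 and 7.56 at day 24 (-2.28 ± 0.14), and albumin, Alb, read 12.68 and 12.87, then 10.97 and 11.07 (-1.75 ± 0.11). Vtn, vitronectin, fell by 1.92, Itih2 by 1.84 and Apoh by 1.83, with another probe set of Apoh at 0.11. Fetal alpha-fetoprotein, Afp, read 12.90 and 12.88, then 11.57 and 11.88 (-1.16 ± 0.13), with its other probe sets between -1.81 and 0.30. The member that rose was Fetub, a fetuin (1.05 ± 0.19). Alb, Afp and Fetub were chosen after their values were seen. Other hepatic and metabolic genes were among the largest falls: Cps1, the first enzyme of the urea cycle, read 9.25 and 8.51, then 5.91 and 5.62 (-3.11 ± 0.19), and the glucose transporter Slc2a2 read 6.85 and 7.04, then 4.68 and 4.81 (-2.20 ± 0.14). The collectin gene Colec11 fell by 2.89 ± 0.16 (another probe set -0.89) and collectrin, Cltrn, by 2.49 ± 0.21. Chymosin, Cym, is a milk-clotting protease of the stomach that was not on the stomach list. It read 12.87 and 12.18, then 11.87 and 8.75, so that most of its change lay in the pair with KGF (-3.44 against -1.0). Without the day 24 KGF with DCI array it was -0.89, without the day 24 DCI array -3.54, and it no longer passed without the day 17 KGF with DCI array (-1.92, adjusted p = 0.0998), without the KGF term (adjusted p = 0.0621) or with a robust prior (adjusted p = 0.183).

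Genes of developmental signalling went both ways. Shh, the hedgehog ligand of gut and airway epithelium, read 7.68 and 7.29, then 5.12 and 4.78 (-2.53 ± 0.21, with another probe set at -0.17), the basement membrane gene Fras1 fell by 2.34 ± 0.16 and the ganglioside synthase St8sia1 by 2.46 ± 0.12 (other probe sets at -1.04 for Fras1 and between -1.5 and -0.30 for St8sia1). Of 14 imprinted growth genes, 11 were lower and 0 higher, with a median of -0.46 and of -0.51 without DCI. The cyclin-dependent kinase inhibitor Cdkn1c read 11.46 and 11.42, then 10.49 and 10.59 (-0.90 ± 0.10), and the growth adaptor gene Grb10 and the zinc finger gene Peg3 fell by 0.82 and 0.76, with an opposite value in another probe set (0.03 and 0.33). Of 16 retinoid genes, 4 were higher and 6 lower. The retinoic acid binding protein Crabp1 read 8.36 and 9.24, then 6.87 and 6.83 (-1.95 ± 0.18), the synthesis enzyme Aldh1a2 fell by 1.32 and its relative Aldh1a3 rose by 1.5 (other probe sets 0.15 and 0.38), and Lrat, which esterifies retinol, fell by 1.52 (other probe set -0.60). Of 17 BMP pathway genes, 5 were higher and 6 lower, and of 25 Wnt pathway genes, 5 were higher and 7 lower (3 lower without the day 17 or the day 24 KGF with DCI array). Over all genes 12% were higher and 22.1% lower. The BMP antagonist Grem1 rose by 1.71 ± 0.16 and the pseudoreceptor Bambi fell by 1.48 ± 0.08, and the noncanonical ligand Wnt5a fell by 1.07 ± 0.12. Of 19 neuronal genes, 7 were lower and 1 higher (3 lower without the day 17 KGF with DCI array and 4 without the day 24 KGF with DCI array), with the neurofilament gene Nefl at -1.72 ± 0.14.

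Whether the change over time differed between cultures with and without DCI was tested by the interaction of day and DCI. It passed for 456 genes (2.51%), of which 97 (0.533%) had the higher change with DCI and 359 (1.97%) the lower. Of the 359, 281 fell with DCI and 135 rose without it, and 57 genes in all passed as lower with DCI and as higher without it, against 8 the other way. Without single arrays 143 to 454 genes passed, with 170 without the day 17 DCI array, 143 without the day 17 KGF with DCI array, 172 without the day 24 KGF array and 181 without the day 24 KGF with DCI array. Without the KGF term 144 passed.

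Macrophage genes formed the largest group of these among the lists. Of 25 genes, 19 were lower and 2 higher over time with DCI (median -1.48), against 6 lower and 3 higher without DCI (median -0.07), and in 17 the change was lower with DCI. The count was 11 without the day 17 DCI or the day 17 KGF with DCI array, and 10 without the KGF term. Of all genes without DCI, 11.8% were higher and 15.8% lower. Aif1, a macrophage activation protein, read 6.76 and 6.46 at day 17 and 4.37 and 3.98 at day 24 with DCI, and 9.25 and 9.0, then 9.09 and 8.64 without it. The complement gene C1qb read 10.27 and 9.91, then 8.52 and 7.53 with DCI, and 11.39 on both day 17 arrays and 11.71 and 11.49 at day 24 without it. The DCI arrays were already below the others at day 17 for both genes. Mpeg1, perforin 2, fell by 2.14 ± 0.11 and the lectin receptor gene Clec4a3 by 2.37 ± 0.18. The lectin gene Clec4a2 (-2.29 ± 0.11, another probe set -0.73) and Ms4a6b (-2.26 ± 0.20) were among the largest falls outside the list. Cd14, the endotoxin co-receptor, chosen after its values were seen, went against the list, with 10.20 and 10.24, then 11.25 and 11.18 (0.99 ± 0.07). F13a1, coagulation factor XIII of macrophages and platelets, read 8.32 and 8.07, then 7.66 and 7.12 with DCI, and 8.32 and 8.70, then 10.34 and 10.13 without. Its fall with DCI no longer passed without the day 17 DCI array (adjusted p = 0.0577) or the day 24 KGF with DCI array (adjusted p = 0.0655).

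Endothelial genes were lower over time with DCI in 15 of 20 cases and higher in 1 (median -0.85), whereas without DCI 3 were higher and 2 lower (median 0.11). Of all genes without DCI, 11.8% were higher and 15.8% lower. In 7 of the 20 the change was lower with DCI, and in 3 without the day 17 KGF with DCI array. Car4, a carbonic anhydrase of capillaries and other epithelia, read 6.86 and 6.96, then 4.61 and 4.23 with DCI, and 7.41 and 7.35, then 8.11 and 8.07 without it (difference -3.20 ± 0.19, adjusted p = 0.000129). Lyve1, a hyaluronan receptor of lymphatic endothelium that some macrophages share, read 6.46 and 5.96, then 4.40 and 4.45 with DCI, and 4.54 and 5.03, then 5.77 and 6.23 without it. Day 17 was the higher day with DCI and the lower day without it. Pecam1 fell by 1.5 ± 0.22 with DCI, and the angiopoietin receptor gene Tek by 1.61 ± 0.19, which did not differ past the threshold from its fall of 1.01 without DCI (adjusted p = 0.30). Vwf, the platelet-binding factor, chosen after its values were seen, rose by 1.05 ± 0.18.

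Lipoprotein and yolk sac endoderm genes also held many members whose change was lower with DCI than without. Of 11 apolipoprotein and lipoprotein assembly genes, 7 were lower with DCI and 3 higher, and the change differed from that without DCI in 8 (7 lower, 1 higher; 4 in all without the KGF term, and 5 without the day 17 KGF or the day 17 KGF with DCI array). Apoa2 read 10.44 and 10.47, then 8.28 on both arrays with DCI, and 9.24 and 8.95, then 9.0 and 8.88 without it. Apob, the structural protein of lipoprotein particles, fell by 2.07 ± 0.11 with DCI, with another probe set at -0.28. Apoc2, an activator of lipoprotein lipase, fell by 2.01 and Apoa1, of high-density lipoprotein, by 1.85. At day 17 all 4 of these genes read higher with DCI than without on both KGF pairs, and at day 24 all 4 but Apoc2 with KGF read lower. Apoc2 read 7.54 and 7.79 with DCI and 8.29 and 7.77 without it at day 24. Apoa4 did not change past the threshold with DCI (9.17 and 8.45, then 8.58 and 8.39; it passed without the day 17 control, day 17 KGF or day 24 KGF with DCI array) and rose by 2.26 without. Of 16 yolk sac endoderm genes, 11 were lower with DCI and 1 higher, and in 8 the change was lower than without DCI (5 without the KGF term). The endocytic receptor cubilin, Cubn, read 7.01 and 7.25, then 5.26 and 5.64 with DCI, and 5.99 and 5.51, then 6.74 and 6.91 without it. Its partner gene amnionless, Amn, fell by 1.13 ± 0.16, the amino acid transporter Slc7a9 by 2.08 ± 0.16 and Spp2 by 1.85 ± 0.15 (another probe set of Spp2 at 0.05). Of the 18 liver plasma protein genes, 8 had the lower change with DCI (3 without the day 17 KGF with DCI array, 4 without the day 24 KGF array, 5 without either array with DCI alone, and 15 without the day 17 control array).

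**Figure D5:**
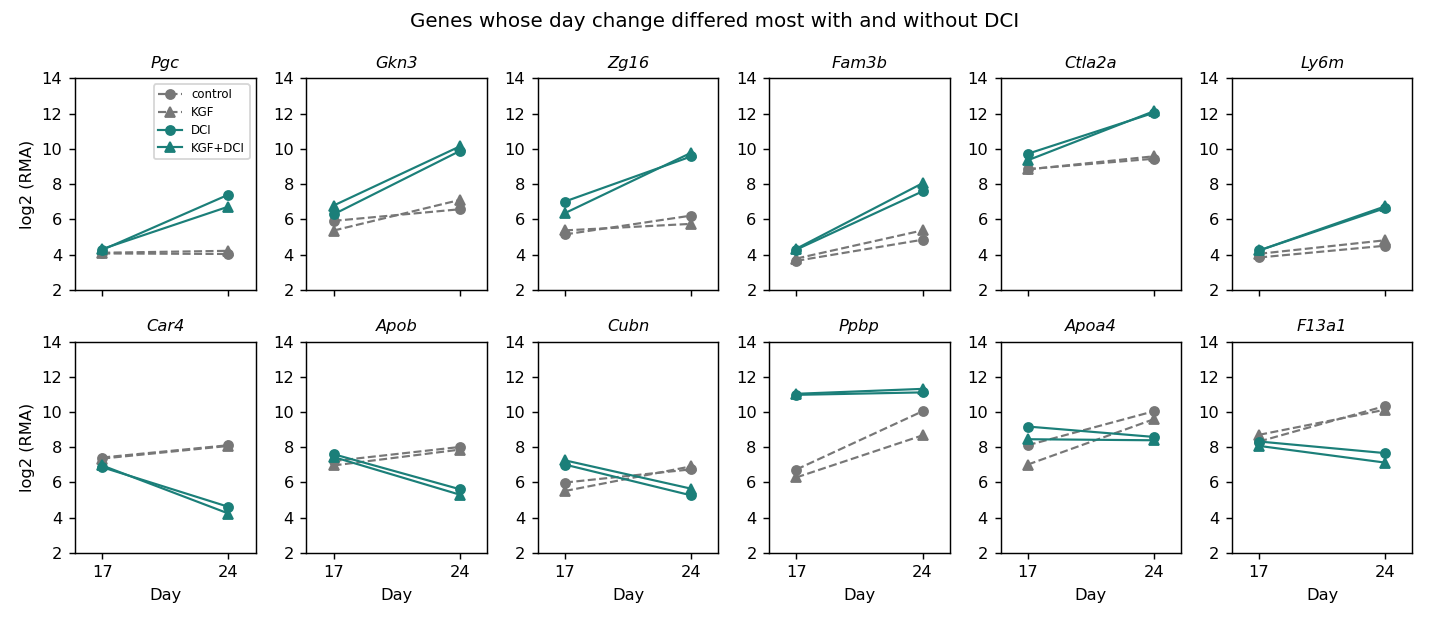
Log2 expression at days 17 and 24 (x axis, days) of the 6 genes with the largest called interaction each way, higher with DCI (top) and lower (bottom), among genes with a day mean with DCI of at least log2 6.67, which leaves out Lyve1 (-3.0); green solid lines are cultures with DCI, grey dashed lines without, circles without KGF and triangles with KGF, 1 array a point. In the top row the lines with DCI climb more steeply, with Pgc at 4.03 to 4.21 on the day 24 arrays without DCI. In the bottom row Car4, Apob, Cubn and F13a1 fall with DCI and rise without it, while Ppbp starts near 11 with DCI.

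Fewer genes rose more with DCI. Pgc did not rise without DCI (4.06 and 4.10, then 4.03 and 4.21), and its changes differed by 2.74 ± 0.29 (adjusted p = 0.00153). On the stomach list, Gkn3 (2.28 ± 0.31) and Ctse (1.71 ± 0.13) also had the higher change with DCI. Zg16, a lectin of secretory granules in gut and pancreas, read 7.01 and 6.35, then 9.57 and 9.78 with DCI, and its changes differed by 2.28 ± 0.29. Fam3b differed by 2.12 ± 0.23, Ctla2a, a protease inhibitor homologue, by 1.89 ± 0.15 and Ly6m by 1.74 ± 0.21. Ctla2a read 9.72 and 9.35, then 12.05 and 12.14 with DCI, and 8.85 and 8.83, then 9.44 and 9.58 without. Ppbp, the platelet basic protein, differed at day 17 already: it read 10.97 and 11.03 at day 17 and 11.11 and 11.31 at day 24 with DCI, and 6.73 and 6.28, then 10.04 and 8.67 without. That difference of -2.63 ± 0.40 (adjusted p = 0.0103) did not pass without the day 17 KGF with DCI array (adjusted p = 0.0731), without the KGF term (adjusted p = 0.0591) or with a robust prior (adjusted p = 0.222).

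The 2 pairs with DCI correlated at 0.82 across genes, which are not independent and share within each array 1 hybridisation. In 3 genes the pairs moved at least 2-fold in opposite directions: Zfp42, Cela2a and Slc25a31, none of which passed. The pluripotency marker Zfp42 read 4.74 with DCI and 6.43 with KGF and DCI at day 17, and 5.96 and 4.41 at day 24. The pancreatic elastase gene Cela2a read 3.42 and 5.63, then 4.62 and 3.94 (1.09, adjusted p = 0.00768, without the day 17 KGF with DCI array, and -1.58, adjusted p = 0.00148, without the day 17 DCI array), and Slc25a31, a germ cell ADP/ATP carrier, 2.48 and 3.74, then 3.53 and 2.66. Other pluripotency genes had the same order of arrays: Nanog read 5.53 and 6.85, then 6.12 and 5.07, and Pou5f1, which encodes Oct4, 5.34 and 6.24, then 5.39 and 4.79. In these 3 the day 17 array with KGF and DCI was the highest of the 4 and the day 24 array with KGF and DCI the lowest. Neither passed with all arrays (adjusted p = 0.322 for Nanog and 0.101 for Pou5f1), while without the day 24 DCI array both did (-1.46, adjusted p = 0.0228, and -1.26, adjusted p = 0.011), as Pou5f1 did without the day 17 DCI array (-1.13, adjusted p = 0.0498). Without DCI, Nanog fell by 1.59 (adjusted p = 0.0217) and Pou5f1 by 1.72 (adjusted p = 0.00233), while Zfp42 did not pass (-0.53, adjusted p = 0.53). The changes of Nanog and Pou5f1 with and without DCI did not differ past the threshold (adjusted p = 0.484 and 0.273). Lin28a, an RNA-binding protein of early embryonic cells, fell by 1.90 ± 0.33 with DCI (4.78 and 6.08, then 3.82 and 3.25), with another probe set at 0.15. Of 13 pluripotency genes, 1 was higher and 2 lower, with 6 lower without the day 24 DCI array and 1 lower without the day 17 or the day 24 KGF with DCI array. Over all genes 12% were higher and 22.1% lower. Apart from Lin28a, the genes of this paragraph were chosen after their values were seen.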

How the data were processed

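RNA of the 10 cultures was hybridised to Affymetrix arrays, as the labels' protocols state. The deposited values are log2 expression from RMA, a method named in the submitters' processing notes. RMA takes out array-wide shifts, so a difference is read against an array's other genes. The sources used here do not give its version or say whether all arrays entered 1 run. Of 45101 probe sets, 34945 had 1 gene symbol in the platform annotation, 932 several, 9160 none and 64 were controls. Each of 18193 genes was represented by the probe set of highest average value on the 10 arrays, without a filter on level.

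Differences were fitted with limma 3.58.1 (R 4.3.3; lmFit, eBayes with a mean trend) on the 8 arrays of days 17 and 24, with a mean for each day and DCI state and an additive KGF term, which pairs the arrays by KGF status. This left 3 residual degrees of freedom. With 1 array a condition, the spread holds array noise and any departure from an additive KGF effect, and no replicate culture stands behind a p-value. The number of arrays limits the precision (median SE 0.13, and 0.18 for the interaction). Benjamini-Hochberg adjustment ran over all 18193 genes. The fit was tested on simulated data.

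The arrays and the 47 gene lists (794 of 845 listed genes measured) were chosen with earlier results of these data known. Named genes were the 15 largest rises and falls that moved alike in both pairs, and the 6 largest interactions each way, all among genes past the threshold of that test whose higher day mean with DCI was at least log2 6.67 (the median of all values), and from every list up to 4 called members with the largest change; clone names were left out. The text names 148 genes, 21 of them chosen after their values were seen. Of the 63 with other probe sets, 33 had one with under 0.5 times the change or the opposite sign. Motifs were searched in 32851 RefSeq promoter windows. Python 3.11.15 and matplotlib 3.10.9 made the figures. Alternatives changed the variance prior, low-value filter, probe set rule, normalisation, threshold, arrays and KGF term.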

Additional observations from a re-analysis of the deposited data

Results flagged for a closer look

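A test of the difference between the changes over time with and without DCI flagged 456 genes, and among the genes named here those with the values below (log2 change with DCI minus that without). The endothelial list had Car4 at -3.20, Lyve1 at -3.0 and Pecam1 at -1.63. Ppbp, on the CXC chemokine list, stood at -2.63 and F13a1, of macrophages and platelets, at -2.53. Lipoprotein genes had Apob at -2.92, Apoa4 at -2.58, Apoc2 at -2.38, Apoa2 at -2.03 and Apoa1 at -1.61. Yolk sac and absorptive genes had Cubn at -2.75, Spp2 at -2.30, Slc7a9 at -1.73, Amn at -1.39, Cltrn at -1.36 and Fabp1 at -1.75. Macrophage genes had C1qb at -2.28, Lyz2 at -2.27, Aif1 at -2.17, Mpeg1 at -1.79, Ms4a6b at -1.79, Clec4a3 at -1.64 and Clec4a2 at -1.42. Liver genes had Colec11 at -1.99, Cps1 at -1.92, Afp at -1.61, Vtn at -1.36, Slc2a2 at -1.31 and Serpina1b at -1.21. Other genes with the lower change were Hsd11b1 (-1.12), St8sia1 (-1.12), Wnt5a (-0.91), Bambi (-0.74), Lcn2 (-0.59) and Mcm3 (-0.58).

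Genes with the higher change with DCI were Pgc (2.74), Gkn3 (2.28), Zg16 (2.28), Fam3b (2.12), Ctla2a (1.89), Ly6m (1.74), Ctse (1.71), Tc2n (1.46), Krt14 (1.37), Rgs2 (1.25), Grem1 (1.24) and Cxcl13 (1.2).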

How the results depend on the processing

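The count of 6198 genes was 5262 to 7597 under the other planned settings that kept every array, except 985 with at least a 2-fold difference in addition. The arrays share no replicate numbers in the labels, so the pairing rests on KGF status alone. Without that replicate block (no KGF term) 5443 genes passed, and 6326 in a fit of the 4 DCI arrays with KGF status as the block. Leaving out 1 array gave 3689 to 6369. The interaction count of 456 was 138 without a mean trend, 223 with the mean of probe sets, 230 at 2-fold, 814 at an adjusted p under 0.10, 294 with all 10 arrays and 144 without the KGF block, and 143 to 454 without 1 array. Without a mean trend 9 macrophage and 3 liver genes had a called interaction, against 17 and 8. Cela2a, not called, ranged from -1.58 without the day 17 DCI array to 1.09 without the day 17 KGF with DCI array.

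The covariate for the dap spike-in, chosen after seeing the data, left 1 gene and 0 interactions (958 at an unadjusted p under 0.05). Under it 18 of the named genes that had passed changed sign, none with an adjusted p under 0.05. Sign changes among named genes that had not passed were not counted. The 18 were Car9 -0.10, Cblif -7.55, Cdkn1c 1.08, Dmbt1 -1.71, F13a1 0.26, Fetub -1.66, Fosb -0.62, Gkn1 -9.72, Gkn3 -0.55, Ifit1 -0.47, Mmp16 0.13, Muc1 -1.87, Napsa -0.21, Oasl2 -1.05, Reg1 -2.85, Scgb1a1 -6.51, Tff2 -0.03 and Vwf -1.32. The interactions of Gkn3 and Ppbp became -1.08 and 0.17. Since the dap difference moved with day on the arrays with DCI, this fit could hardly separate it from the day change. No conclusion is drawn from its values. The cause was not tested. In the other settings no called change of a named gene reversed. Signal over background limits what dim genes can show.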

Other observations

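Other gene lists also held members that changed between days 17 and 24 with DCI. Over all genes 12% were higher and 22.1% lower, and the counts in this section are to be read beside these shares. Of 15 adipocyte genes, 4 were higher and 0 lower (2 higher without the day 17 DCI array, 8 without either day 17 array lacking DCI and 7 without the day 24 control array). They were led by Pparg, the adipocyte nuclear receptor, which read 5.89 with DCI and 5.85 with KGF and DCI at day 17 and 7.17 and 7.32 at day 24 (1.37 ± 0.19, against 0.93 without DCI). Of 18 amino acid stress genes, 6 were higher and 2 lower, with the stress protein gene Nupr1 at 1.12 ± 0.07 and Phgdh, the first enzyme of serine synthesis, at -1.01 ± 0.07. Phgdh read 10.46 and 10.37, then 9.49 and 9.33. Of 17 clock genes, 6 were higher and 1 lower, with the nuclear receptor gene Rora at 0.86 ± 0.14 (other probe sets 0.16 to 1.07).

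Of 18 cardiac muscle genes, 1 was higher and 6 lower (3 lower without the day 17 KGF with DCI array). The atrial light chain gene Myl7 read 11.34 and 11.48, then 10.89 and 10.16 (-0.89 ± 0.15). Of 19 cytochrome P450 genes, 6 were higher and 4 lower (3 higher without the day 17 DCI, the day 17 KGF with DCI or the day 24 KGF with DCI array). Cyp2f2, a club cell monooxygenase, read 9.95 and 11.37, then 9.18 and 9.53 (-1.31 ± 0.23), while the club cell gene Scgb1a1 rose. The fall of Cyp2f2 did not pass without the KGF term (adjusted p = 0.141) or with a robust prior (adjusted p = 0.077). The glial water channel gene Aqp4, also found in epithelia, read 5.59 and 6.91, then 8.12 and 8.95 (2.29 ± 0.16, against 2.99 without DCI), with other probe sets from 0.94 to 2.61.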
